A study of Mus musculus with 48 samples.

Results

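The genes described here serve protein folding in the endoplasmic reticulum (ER) and the unfolded protein response: HSPA5, XBP1, ATF4, PDIA3, PDIA4, PDIA6, CALR, CANX, DNAJB9 and ERO1L. Their probes were taken by symbol from the array, whatever their values. This gave 12 of the 24613 probes and 9 of the 10 named genes, among 18991 symbols in all, with 2 probes for ATF4 and 3 for ERO1L. DNAJB9 was not analysed here. Expression was measured with Illumina bead arrays in 3T3-L1 cells, an established mouse fibroblast line that turns into fat cells, with the question of how PPARγ, the nuclear receptor that drives this differentiation, shapes gene expression. The 48 arrays covered 2 siRNAs, 8 days and 3 biological replicates of each. All cells were transfected before differentiation with siRNA at 50 nM, either a non-targeting pool (control siRNA) or a pool against PPARγ (PPARγ KD). Both groups received the same cocktail at confluence, dexamethasone (0.25 µM) with IBMX (0.5 mM) for 48 h from day −2 and then 5 µg/ml insulin and 1 µM rosiglitazone, a ligand of PPARγ, for 48 h from day 0, with fresh medium every 2 days. RNA was taken on day −2 and on days 0 to 6. No arm went without rosiglitazone and no ER stressor was used, so each comparison is between siRNAs or between days of this protocol.

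The unfolded protein response senses a load of unfolded protein in the ER through the membrane sensors IRE1, PERK and ATF6. IRE1 splices the XBP1 transcript into the form that encodes an active transcription factor, PERK signalling favours translation of ATF4, and ATF6 and XBP1 raise chaperones such as HSPA5 and the disulfide isomerases. Fat cells secrete adipokines and lipoprotein lipase, which fold and form disulfide bonds in the ER. The arrays read transcript levels of whole genes, so splicing of XBP1 and translation of ATF4 were not measured here.

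The ER stress response element (ERSE), through which ATF6 and XBP1 act, is CCAAT and CCACG set 9 bases apart. It was searched on both strands from 250 bases before to 50 bases after the RefSeq start of each gene (build GRCm38.p6). It stood in 4 of the 10 member promoters, Hspa5, Pdia6, Calr and Canx, and in 0.119% of the 32851 promoters of the table. A second form of the element (ERSE-II, ATTGG and CCACG 1 base apart, in 0.0365% of all promoters), the XBP1 motif core TGACGTGG (0.676%), the ATF4 motif TGATGNAA (3.97%) and a direct repeat of AGGTCA with 1 base between, the kind of site PPARγ binds with RXR (0.0396%), matched no member promoter. A match is a string of letters and not a measured site, and no match says only that these letters are absent from the window. The promoters of Xbp1, whose level differed most between the siRNAs among members above background, of Hspa5 and Pdia6, which hold an ERSE, and of Atf4 are shown 5′ to 3′ on the gene's strand, with the ERSE in capitals. Xbp1 lies at chr11:5520391-5520690 on the plus strand, Atf4 at chr15:80254934-80255233 (plus), Hspa5 at chr2:34771840-34772139 (plus) and Pdia6 at chr12:17266339-17266638 (plus).
Xbp1: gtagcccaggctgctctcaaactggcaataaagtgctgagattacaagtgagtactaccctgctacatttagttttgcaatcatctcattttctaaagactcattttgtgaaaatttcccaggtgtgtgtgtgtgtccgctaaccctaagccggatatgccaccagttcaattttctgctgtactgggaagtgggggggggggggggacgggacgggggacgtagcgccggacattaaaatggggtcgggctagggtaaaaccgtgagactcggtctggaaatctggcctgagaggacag
Atf4: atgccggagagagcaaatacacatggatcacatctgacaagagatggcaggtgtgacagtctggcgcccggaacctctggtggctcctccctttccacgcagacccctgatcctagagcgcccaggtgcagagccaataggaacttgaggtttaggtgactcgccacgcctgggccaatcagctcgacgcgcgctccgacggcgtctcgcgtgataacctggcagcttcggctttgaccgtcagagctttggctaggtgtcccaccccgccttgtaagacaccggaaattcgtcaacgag
Hspa5: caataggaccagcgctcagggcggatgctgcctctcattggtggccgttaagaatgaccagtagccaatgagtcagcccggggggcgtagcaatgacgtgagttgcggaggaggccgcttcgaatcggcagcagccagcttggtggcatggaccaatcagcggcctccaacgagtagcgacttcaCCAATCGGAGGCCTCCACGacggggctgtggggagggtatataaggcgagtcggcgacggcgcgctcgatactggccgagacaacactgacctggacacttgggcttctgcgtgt
Pdia6: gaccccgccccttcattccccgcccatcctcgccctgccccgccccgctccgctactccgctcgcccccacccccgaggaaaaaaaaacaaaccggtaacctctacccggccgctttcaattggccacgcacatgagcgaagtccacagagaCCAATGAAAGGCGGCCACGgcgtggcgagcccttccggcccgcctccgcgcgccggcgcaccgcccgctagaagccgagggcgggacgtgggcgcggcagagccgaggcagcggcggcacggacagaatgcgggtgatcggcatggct

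The ERSE of Hspa5 began 65 bases and that of Pdia6 98 bases before the start of the gene. Calr and Canx were not above background on the arrays, so only their ERSE is given, with 5 bases on each side. The Canx promoter window is chr11:50325624-50325923 on the minus strand, with the ERSE beginning 145 bases before the start. In Calr, in the window chr8:84846882-84847181 on the minus strand, the element was read on the opposite strand and its letters began 162 bases before the start.
Canx: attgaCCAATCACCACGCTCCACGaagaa
Calr: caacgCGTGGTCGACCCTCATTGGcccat

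The labelled cells showed their markers. All 9 fibroblast genes of a fixed list were above background on all 48 arrays, 0 of 4 endothelial genes were above background on any array, and of 6 macrophage genes CD14 alone was above background, on 40 arrays. Between 36.8% and 40.4% of probes per array were above background (detection p under 0.01) in replicates 1 and 2 and between 33.5% and 35.4% in replicate 3, and the number of arrays limits the precision. The PPARγ transcript itself, by its brightest probe, was lower in the PPARγ KD by a log2 difference of −2.34 (SE 0.04, limma's Bonferroni adjusted p = 9.48e-34). All levels below are normalised intensities on the log2 scale, differences are PPARγ KD minus control siRNA, and a probe was called when limma's p, Bonferroni adjusted over the 24613 probes, was at most 0.05. In these fits the days of a replicate count as independent once the replicate block is removed. The SEs, intervals and p-values therefore do not measure the spread of an effect between replicates.

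Replicate 3 stood apart for some of these genes. HSPA5 had a mean log2 level of 10.88 in replicate 1, 10.99 in replicate 2 and 7.66 in replicate 3. In unnormalised intensity its 32 arrays of replicates 1 and 2 lay between 1335 and 3560 and its 16 arrays of replicate 3 between 206 and 332.7. Only 0.0568% of the 10567 probes above background on at least 3 arrays differed as much or more between replicate 3 and the others, and the median size of this difference was 0.23. PDIA6 was lower in replicate 3 by 1.29, and the ATF4 probes 730441 and 1740195 by 1.18 and 1.24, while XBP1, PDIA3 and PDIA4 differed by 0.14 or less. Both siRNAs and all days share this offset, and the fit removes it as a block. The cause was not tested, and results that rest on replicate 3 are given with and without it.

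XBP1 was lower in the PPARγ KD, and most other members had no called difference. Over days −2 to 6, 3 of the 12 member probes were called, against 13.1% of all probes: XBP1 and PDIA6 were lower and 1 of the 2 ATF4 probes was higher in the PPARγ KD. By direction, 6.74% of all probes were called lower and 6.37% higher. Of the 7121 probes above background on all arrays 31.5% were called. Over days 4 to 6 alone XBP1 was the one member called, against 5.31% of all probes. On single days there were 7 calls, XBP1 on days 1 to 6 and ERO1L on day 2, with 2.91%, 8.92%, 2.76%, 2.4%, 3.24% and 3.88% of all probes called on days 1 to 6.

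**Figure D1:**
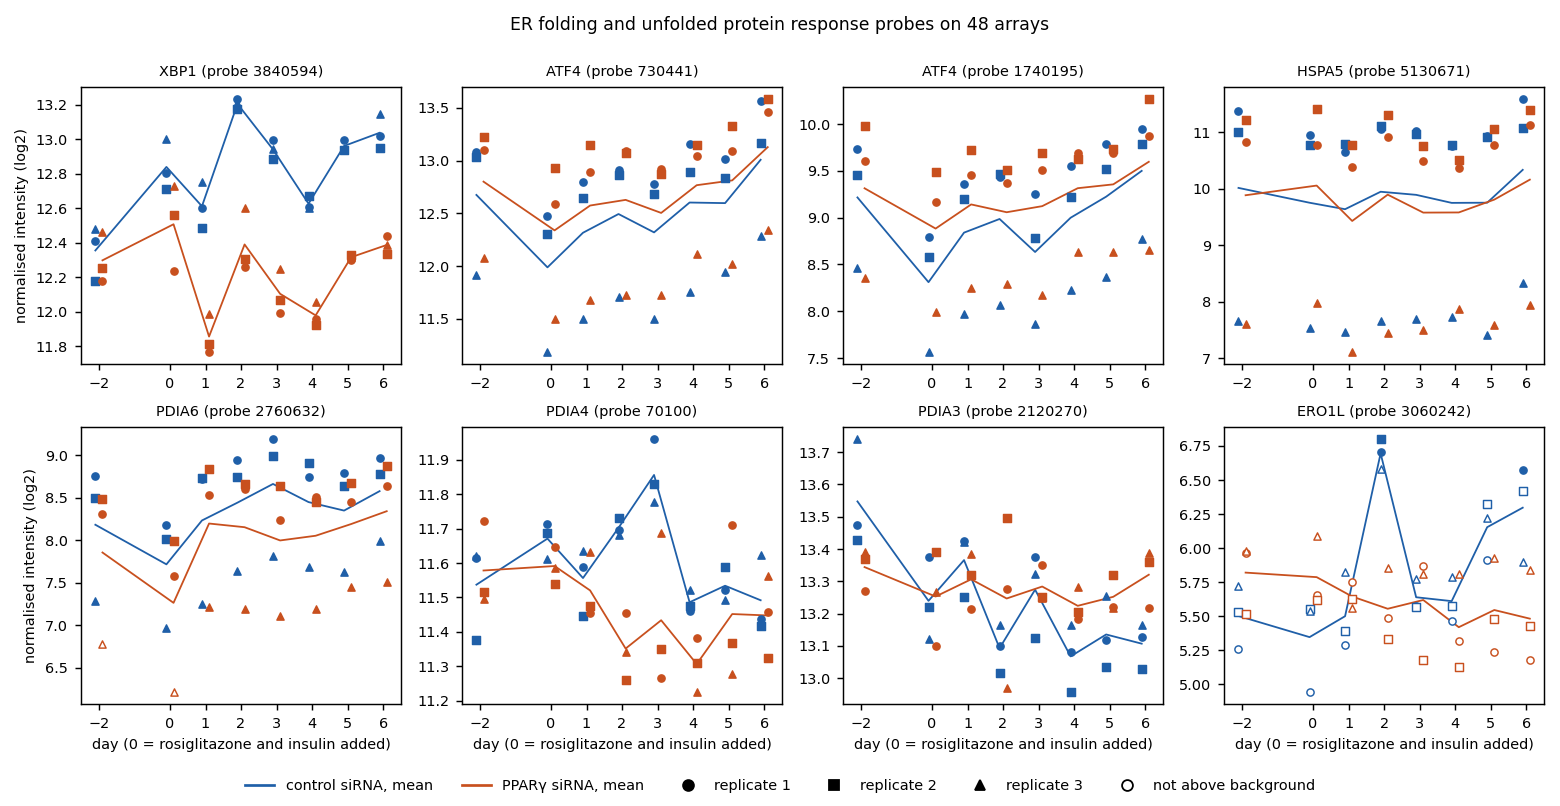
Normalised log2 intensity by day for the 7 probes above background on at least 46 arrays and the brightest ERO1L probe; points are arrays (shape gives the replicate, open points are not above background) and lines the means of 3 arrays per siRNA. XBP1 under PPARγ KD lay below all control arrays from day 1 to day 6, and the triangles of replicate 3 lay far below the other replicates for HSPA5, ATF4 and PDIA6.

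XBP1, the transcription factor that raises the ER folding and secretory machinery, was read by probe 3840594 at the 97.3th percentile of probe levels. On day −2 the control arrays read 12.41, 12.18 and 12.48 and the PPARγ KD arrays 12.18, 12.25 and 12.46. On day 0 the control values were 12.80, 12.71 and 13.00, with 12.23, 12.56 and 12.73 in the PPARγ KD. At these days the groups overlapped, and neither difference was called. By day 1 control arrays gave 12.60, 12.49 and 12.75 while PPARγ KD arrays gave 11.77, 11.81 and 11.99. The highest control values came on day 2, with 13.23, 13.18 and 13.21 against 12.26, 12.30 and 12.60. For day 3 the values were 13.00, 12.89 and 12.94 in controls against 11.99, 12.07 and 12.25. From day 1 on, every control array was above every PPARγ KD array of its day. Day 4 gave 12.61, 12.67 and 12.60 in controls and 11.96, 11.93 and 12.05 in the PPARγ KD. Day 5 gave 13.00, 12.94 and 12.95 against 12.30, 12.33 and 12.32. Day 6 gave 13.02, 12.95 and 13.14 against 12.44, 12.34 and 12.39. No overlap in this direction was seen for between 5.54% and 9.91% of all probes on each of these days.

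The mean XBP1 difference over the 8 days was −0.59 (SE 0.03, 95% interval −0.65 to −0.53), a level 1.51-fold lower in the PPARγ KD, with limma's Bonferroni adjusted p = 1.89e-16. It was −0.69, −0.55 and −0.54 in replicates 1, 2 and 3, and it was negative in 23 of the 24 pairs matched by day and replicate. By day the difference was −0.06 on day −2, −0.33 on day 0, −0.76 on day 1, −0.81 on day 2, −0.84 on day 3, −0.65 on day 4, −0.64 on day 5 and −0.65 on day 6. The difference was smallest on days −2 and 0 and its size was greatest on day 3. An F test of whether it differed between days was called (limma's adjusted p = 0.0317), one of 2 member probes against 7.11% of all probes. Among probes above background on all arrays this share was 17.8%. The XBP1 call was lost without any one of the replicates. Over days 4 to 6 the replicates gave −0.64, −0.66 and −0.65 (SE 0.05, adjusted p = 1.62e-06), a spread of 0.0079 (SD, n = 3). Without replicate 3 the effect over all days was −0.62 and was still called.

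**Figure D2:**
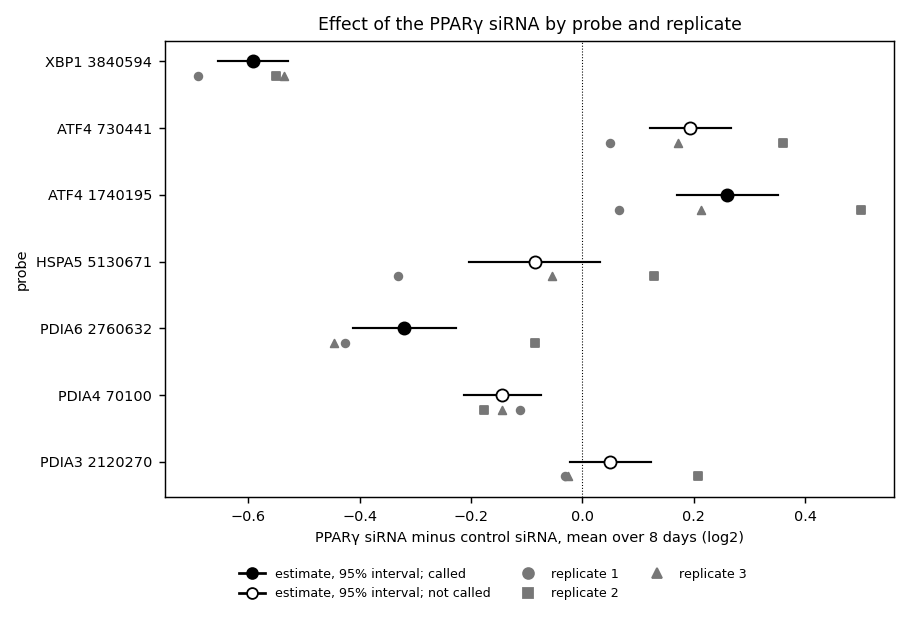
PPARγ siRNA minus control siRNA, averaged over 8 days, on the log2 scale for the 7 probes above background on at least 46 arrays; circles with bars are estimates with 95% intervals (filled, called) and small grey symbols the replicates. XBP1 at −0.59 is the probe farthest from 0, and its 3 replicates lie close together, whereas those of ATF4, HSPA5 and PDIA6 are spread.

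The same cultures differed in fat cell genes. All 9 adipocyte markers of a fixed list were called lower in the PPARγ KD over days −2 to 6, against 6.74% of all probes. Their summed level on days 4 to 6 ranged from 143200 to 191200 (linear scale) in controls and from 17010 to 41990 in the PPARγ KD. In bulk RNA, fewer fat cells and less transcript per cell cannot be told apart, and the part of cell composition in the XBP1 difference was not tested. The sum of 9 fibroblast markers ranged from 107400 to 120400 in controls and from 108500 to 139400 in the PPARγ KD on the same days. Over all days 4 of the 9 were called higher, against 6.37% of all probes. All 9 were above background on all arrays, and of such probes 31.5% were called, in either direction.

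ATF4, the transcription factor of the integrated stress response that raises amino acid supply genes, was slightly higher in the PPARγ KD. The brighter probe, 730441, averaged 12.50 on the 24 control arrays and 12.69 on the 24 PPARγ KD arrays, a difference of 0.19 (SE 0.04, 95% interval 0.12 to 0.27) that missed the threshold (limma's adjusted p = 0.0868). Probe 1740195 gave 0.26 (SE 0.04, adjusted p = 0.0278) and was called, with an SD of 0.22 between replicates (n = 3) that the SE does not measure. The difference was positive in 22 of 24 pairs for the first and in 18 of 24 for the second. Replicate 2 carried the largest part, with 0.36 for probe 730441 and 0.50 for probe 1740195 against 0.05 and 0.07 in replicate 1 and 0.17 and 0.21 in replicate 3. The groups overlapped on all 8 days for both. Replicate 3 differed from the others by −1.18 for probe 730441 and −1.24 for probe 1740195. The largest pair differences were 0.62 and 0.91, so the overlap follows from replicate 3 and says nothing about the siRNA effect. Without replicate 2 probe 1740195 gave 0.14 and without replicate 3 it gave 0.28, and leaving out any replicate ended its call.

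ATF4 fell under control siRNA between day −2 and day 0. Under control siRNA probe 730441 read 13.08, 13.03 and 11.91 on day −2 and 12.47, 12.30 and 11.19 on day 0. Every replicate was lower on day 0, by 0.60, 0.73 and 0.72, which gives 1.61-fold (limma's adjusted p = 0.00124). Probe 1740195 fell by 0.91 (adjusted p = 0.000422). These were the 2 of 12 member probes called for this step, against 9.06% of all probes. Among probes above background on all arrays this share was 22.4%. In the PPARγ KD probe 730441 read 13.10, 13.23 and 12.08 on day −2 and 12.59, 12.93 and 11.50 on day 0, a difference of −0.46 that was not called, and the difference between the siRNAs in this step was not called either. Control values of probe 730441 were 12.91, 12.86 and 11.71 on day 2 and 13.57, 13.17 and 12.29 on day 6, where each control replicate was at its highest of the 8 days. The steps from day 0 to day 2 (0.50, adjusted p = 0.33) and from day 2 to day 6 (0.51, adjusted p = 0.255) did not pass the threshold. Without replicate 3 this step was −0.67 for probe 730441 and −0.91 for probe 1740195, and neither was called. Without replicate 1 it was −0.73 and −0.89, again uncalled, and without replicate 2 probe 1740195 was still called (−0.92) while probe 730441 was not (−0.66).

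HSPA5 (BiP), the main Hsp70 chaperone of the ER and a standard read-out of ER stress, showed no called difference. On day 2 the control arrays read 11.06, 11.11 and 7.67 and the PPARγ KD arrays 10.92, 11.31 and 7.46. On day 6 they read 11.58, 11.08 and 8.34 against 11.14, 11.40 and 7.95. The groups overlapped on all 8 days. Replicate 3 differed from the others by −3.27, and the pair differences between the siRNAs lay between −0.56 and 0.63. The overlap therefore follows from replicate 3 and says nothing about the siRNA effect. The mean difference was −0.09 (SE 0.06, 95% interval −0.20 to 0.03, limma's adjusted p = 1), and the replicates did not share a sign, with −0.33, 0.13 and −0.05. It was −0.10 without replicate 3. The replicate values spread beyond this interval (SD 0.231, n = 3), which counts the days of a replicate as independent. The interval therefore sets no bound on the difference. Over the days, the means of HSPA5 spanned 0.70 in controls and 0.73 in the PPARγ KD, lowest on day 1 and highest on day 6 in both, and neither time course was called.

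Of the disulfide isomerases, which form and reshuffle disulfide bonds of proteins in the ER, PDIA6 was called and PDIA4 and PDIA3 were not, and the differences between these genes were not tested. PDIA6 (P5), an isomerase that works with HSPA5, was lower in the PPARγ KD over all days by −0.32 (SE 0.05, limma's adjusted p = 0.000581), with −0.43, −0.09 and −0.45 in the replicates and 21 of 24 pairs lower. Between its replicates the SD was 0.203 (n = 3), which the SE does not measure. On day 3 its control arrays read 9.19, 8.99 and 7.81 and the PPARγ KD arrays 8.24, 8.64 and 7.11. The day's groups overlapped, with replicate 3 low under both siRNAs. PDIA6 was above background on 24 of 24 control and 22 of 24 PPARγ KD arrays, and the fit includes both arrays below it (replicate 3 on days −2 and 0). Its difference was −0.27 without replicate 1 and −0.26 without replicate 3, and neither was called. PDIA6 rose from day 0 to day 2 under both siRNAs, by 0.73 in controls (adjusted p = 0.0444) and by 0.89 in the PPARγ KD (adjusted p = 0.000835). The control step lay between 0.70 and 0.75 with any one replicate left out and was then not called.

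PDIA4 (ERp72) had a difference of −0.14 (SE 0.03, 95% interval −0.21 to −0.08), which was not called (limma's adjusted p = 1), and 19 of 24 pairs were negative. On day 2 the control arrays read 11.70, 11.73 and 11.68 and the PPARγ KD arrays 11.45, 11.26 and 11.34. Day 4 gave 11.46, 11.48 and 11.52 against 11.38, 11.31 and 11.23. The groups did not overlap on days 2, 3 and 4, as was so in this direction for 9.91%, 5.94% and 5.54% of all probes. PDIA3 (ERp57), the isomerase that serves glycoproteins bound to calreticulin and calnexin, was the brightest member at the 98.5th percentile and differed by 0.05 (95% interval −0.02 to 0.12). It read 13.13, 13.03 and 13.16 in controls and 13.22, 13.36 and 13.39 in the PPARγ KD on day 6, and 13.48, 13.43 and 13.74 against 13.27, 13.37 and 13.39 on day −2. All PPARγ KD arrays were above the controls on days 4 and 6 and below them on day −2, and none of these differences was called. Of all probes, 4.73% and 5.55% were likewise higher without overlap on days 4 and 6, and 4.42% lower on day −2.

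The probes of the lectin chaperones CALR (calreticulin) and CANX (calnexin), which hold glycoproteins during folding, were not above background on any of the 48 arrays. Their unnormalised intensities were between 89.2 and 136 and between 109.2 and 157.2, so no level can be given for either gene. ERO1L, the oxidase that recharges the disulfide isomerases, was near background, and 2 of its 3 probes, 4780154 and 5220075, were not above it on any array. For probe 3060242, 3 of 24 control arrays, 2 on day 2 and 1 on day 6, passed the detection limit, and 0 of 24 PPARγ KD arrays did. On day 2 the control arrays read 6.71, 6.80 and 6.58 and the PPARγ KD arrays 5.48, 5.33 and 5.85. The control arrays of day 2 were above all others of the probe, and the groups of that day did not overlap. The measured means of day 2 differed by −1.14 (limma's adjusted p = 0.0092). Against the lowest signals above background on the PPARγ KD arrays, the control mean of that day was 1.17-fold higher. This mean includes an array not above background, so the ratio is not a minimum, and it was not tested. Between day 0 and day 2 the measured control mean went from 5.35, with 0 of 3 arrays above background, to 6.70, with 2 of 3, and this step was called (adjusted p = 0.000285). The probe was also the one member called for a step that differed between the siRNAs, against 4.12% of all probes. Of the 4 means in that contrast only the control mean of day 2 had arrays above background, so the contrast gives no size. Without replicate 3 the measured day 2 difference was −1.35 in place of −1.14 and was not called (adjusted p = 0.0671), and the call was also lost without replicate 1 (−1.10) and without replicate 2 (−0.98).

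Across the 8 days, 5 of the 12 member probes were called for a change in time under control siRNA, against 23.5% of all probes: XBP1, both ATF4 probes, PDIA6 and ERO1L. In the PPARγ KD 3 were called (XBP1, ATF4 probe 730441 and PDIA6), against 16.5% of all probes. Among the 7121 probes above background on all arrays, the control time course was called for 59.9% and the PPARγ KD course for 42.5%. For the step from day 0 to day 2, PDIA6 and ERO1L were called higher under control siRNA (12.4% of all probes called, 6.55% higher) and PDIA6 in the PPARγ KD (5.06%). From day 2 to day 6 limma called 0 of 12 under control siRNA, against 12.2% of all probes, while 5 had an unadjusted p under 0.05 and 2 passed a Benjamini-Hochberg adjustment. The siRNA effect on days 4 to 6 minus that on days 0 to 2 was called for 0 of 12 (3.63% of all probes), with 1 at an unadjusted p under 0.05 and 0 after Benjamini-Hochberg. The XBP1 mean under control siRNA ranged from 12.36 on day −2 to 13.21 on day 2. Neighbouring days of this order, such as days 3, 5 and 6 at 12.94, 12.96 and 13.04, lay within the spread of their arrays.

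Other genes of the ER stress response were read from a list of 66, of which 59 had a probe and 43 were above background on at least 3 arrays. Over days −2 to 6, 4 were called lower and 7 higher in the PPARγ KD, against 6.74% and 6.37% of all probes, and the list's median difference was −0.01 beside −0.03 over all probes. All 7 higher genes stood among the 13 genes with a probe in the group of ATF4 and stress targets: VLDLR, CHAC1, SLC3A2, TRIB3, DDIT3, ASNS and SHMT2. Of the 13, 9 were above background on at least 3 arrays. ATF3, SESN2, STC2 and SLC7A11 were not above it on any array but stay in the group's counts and medians. The median difference of this group was 0.26. VLDLR, a lipoprotein receptor, was higher by 0.43 (SE 0.03, limma's adjusted p = 1.89e-12), CHAC1, a glutathione-degrading enzyme, by 0.43 (SE 0.06, adjusted p = 0.000211), and SLC3A2, a subunit of amino acid transporters, by 0.42 (SE 0.07, adjusted p = 0.0193). The replicates of SLC3A2 gave 0.08, 0.78 and 0.39, so replicate 2 held most of its difference, and on day −2 its control arrays read 10.80, 10.35 and 6.94, with replicate 3 far below the others. The genes called lower differed by less than those called higher. SYVN1, a ubiquitin ligase of ER-associated degradation, differed by −0.20 (adjusted p = 0.00118), SRPRB, a subunit of the receptor for the signal recognition particle, by −0.20 (adjusted p = 0.00196), and DERL2, of the channel that extracts proteins from the ER, by −0.19 (adjusted p = 0.00235). VLDLR had 4 probes, TRIB3, DERL2 and SRPRB 3 each, and ASNS and SHMT2 2 each. Only the brightest probe of each is given, and whether the others move alike is not described here. The probes of the sensors ERN1 and ATF6 were not above background on any array. Without replicate 3, 6 of the 7 were still called higher, all but SLC3A2, and 0 were called lower. The lower genes had differences of like size in replicates 1 and 2, with −0.25 and −0.18 for SYVN1, −0.29 and −0.15 for SRPRB and −0.25 and −0.15 for DERL2, so the lost calls do not show that these values rest on replicate 3.

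**Figure D3:**
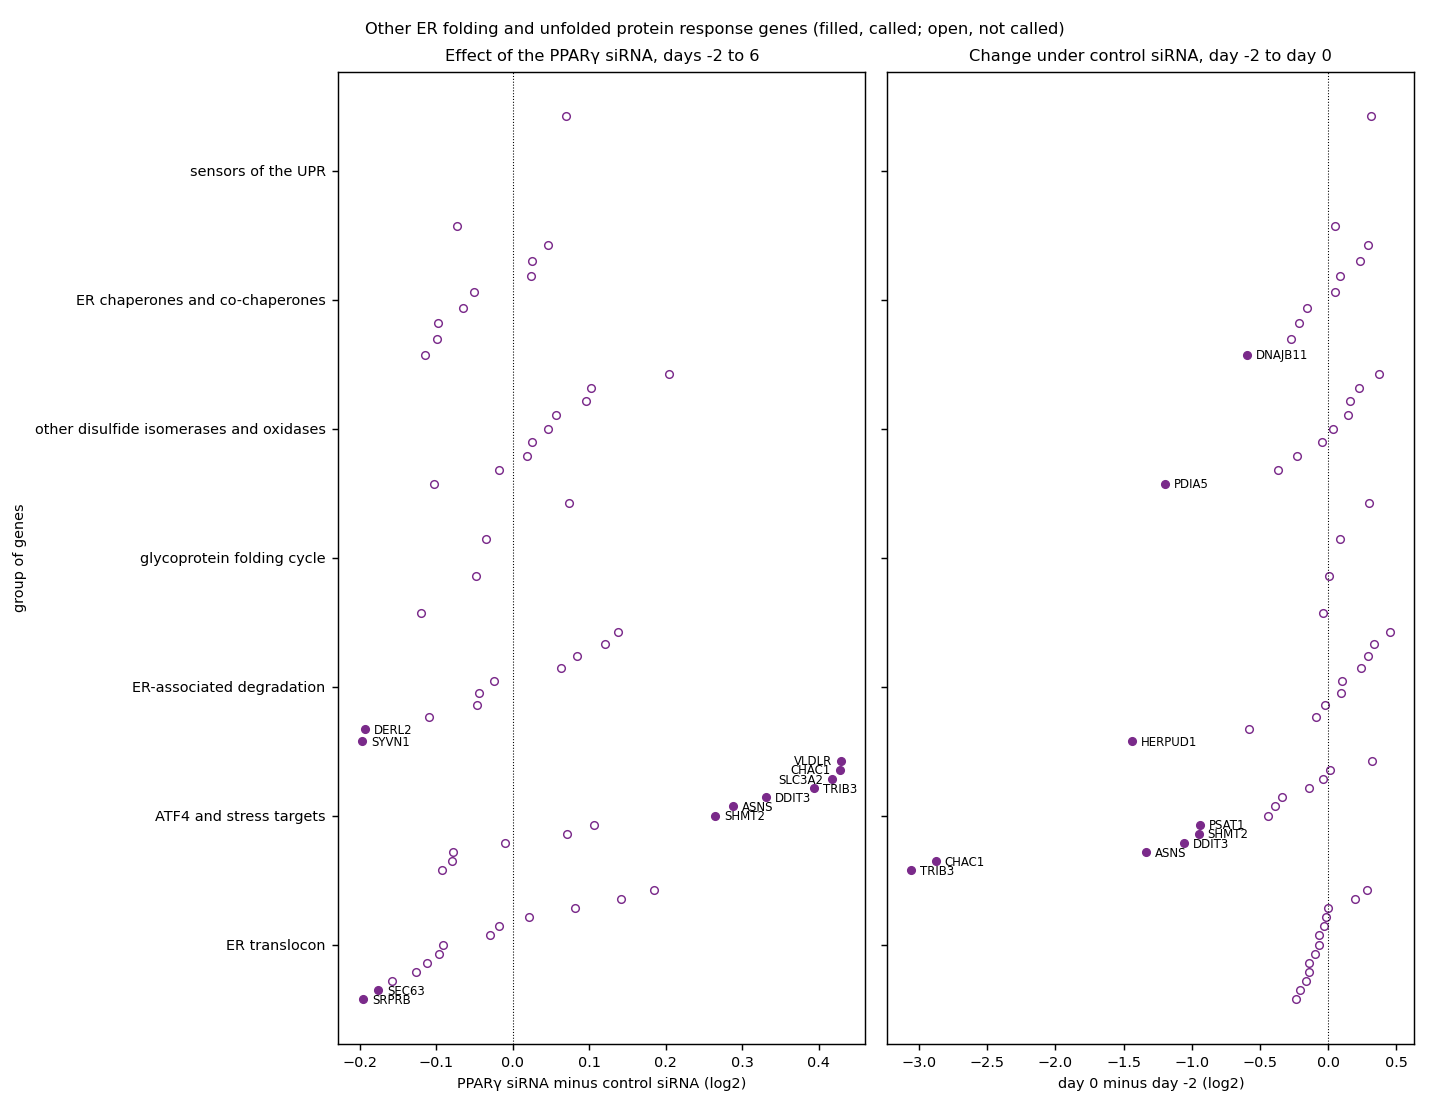
Log2 differences of 59 other ER folding and stress genes by group, for the PPARγ siRNA effect over days −2 to 6 (left) and for the change from day −2 to day 0 under control siRNA (right); each point is a gene by its brightest probe, filled where called. The 7 genes called higher at left all lie in the ATF4 and stress target group, which also holds 6 of the 9 genes called lower at right.

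Part of the ATF4 target genes fell to day 0 and rose again by day 2 under control siRNA. From day −2 to day 0 under control siRNA 9 of the 59 genes were called lower and 0 higher, against 5.04% of all probes called lower, and 6 of the 9 were in the ATF4 and stress target group, whose 13 genes had a median step of −0.44. All 9 were above background on all arrays, as were 38 of the 59. Of all such probes 22.4% were called, in either direction. From day 0 to day 2, 7 of the 13 genes of the target group were called higher, against 6.55% of all probes. Of probes above background on all arrays 33.1% were called for this step, in either direction. The 7 include SLC7A11, whose probe was not above background on any array, and the group's median step of 0.97 is the value of that probe. MTHFD2 was called for the rise but not for the fall, and DDIT3 for the fall but not for the rise. TRIB3, a pseudokinase, fell from 11.76 to 8.70, which is 8.32-fold (limma's adjusted p = 4.95e-17), and CHAC1 from 12.16 to 9.28, which is 7.35-fold (adjusted p = 3.38e-15). HERPUD1, an ER membrane protein of degradation, fell 2.71-fold, ASNS, asparagine synthetase, 2.53-fold, and DDIT3 (CHOP), a transcription factor of prolonged stress, 2.08-fold. TRIB3, HERPUD1, ASNS and DDIT3 were named for this step after their values were seen. Without replicate 3, 8 of the 9 were still called, all but DNAJB11, a co-chaperone of HSPA5. In the PPARγ KD the same step changed TRIB3 by −1.72, and the difference between the siRNAs was 1.34 (adjusted p = 0.00857). This difference was not called for CHAC1 (1.16, adjusted p = 0.332), ASNS (0.78, adjusted p = 0.378), DDIT3 or HERPUD1. On day −2 the group's median difference between the siRNAs was already 0.42 beside 0.01 for all probes, where limma called 0 of 13 and 9 had an unadjusted p under 0.05. On day 0, 7 of the 13 target genes were called higher in the PPARγ KD, against 1.67% of all probes, with a median difference of 0.71 for the group beside 0.07 for all probes. The share called on day 0 among probes above background on all arrays was 7.78%, in either direction. TRIB3 was then higher by 1.87 (adjusted p = 3.78e-10) and CHAC1 by 1.58 (adjusted p = 2.76e-07). TRIB3 read 8.67, 8.54 and 8.90 in controls and 10.74, 10.98 and 9.99 in the PPARγ KD. CHAC1 read 9.34, 9.32 and 9.18 against 11.19, 11.48 and 9.91, and for both genes replicate 3 differed least. On day 1, 4 of the 13 were called higher and on day 2 VLDLR alone. On days 3 to 6 limma called 0 of 13, with 4, 4, 2 and 8 at an unadjusted p under 0.05 in either direction. The group's median differences on these days were 0.15, 0.01, −0.06 and −0.11. Signs were mixed on day 6, with −0.56 for TRIB3 and −0.37 for PSAT1 beside 0.34 for DDIT3 and 0.51 for SLC3A2. The effect on days 4 to 6 minus that on days 0 to 2 was called lower for 5 genes of the list (TRIB3, CHAC1, ASNS, PSAT1 and VLDLR), against 2.82% of all probes. For this contrast 8% of probes above background on all arrays were called, in either direction. Without replicate 3 SHMT2 was called in place of PSAT1. Over days 4 to 6 limma called 0 of the 59, although 24 had an unadjusted p under 0.05.

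**Figure D4:**
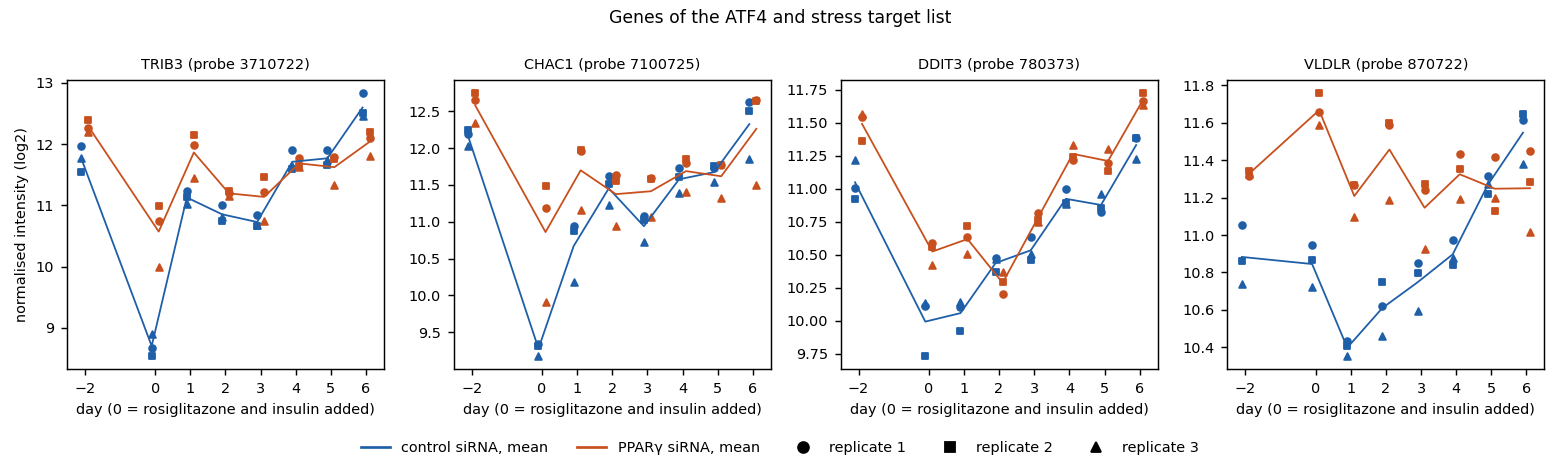
Normalised log2 intensity by day for 4 genes of the ATF4 and stress target list, with points for arrays (shape gives the replicate) and lines for means of 3 arrays per siRNA. TRIB3 and CHAC1 under control siRNA drop to 8.70 and 9.28 on day 0, below the PPARγ KD arrays of that day.

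Of all probes above background on the 48 arrays, those most like ATF4 probe 730441 over the 16 means of siRNA and day, by Pearson's r as a description, were EIF3S8 (0.93), CYB5R1 (0.92), CHAC1 (0.90), DDIT3 (0.89) and PLEKHA1 (0.89). Both CHAC1 and DDIT3 are in the ATF4 target group above. The ATF4 probes had r = 0.96 with each other. HSPA5 was most like LOC100048105 (0.80), ZFP236 (0.79), 2900064A13RIK (0.77), USMG5 (0.75) and RABGEF1 (0.75), none of them a folding gene of the lists. Among the members XBP1 was most like PDIA4 (r = 0.62), and its r with ATF4 probe 730441 was −0.25. These means share arrays and scaling, so no test is attached.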

How the data were processed

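The authors deposited unnormalized bead-level summaries from BeadStudio (3.3.7 per the file header): a mean intensity per probe and array, its bead SD, a bead number and a detection value, which is a deposited fraction (1 − detection p). Bead numbers (median 35) are other deposited values and only described probes. The study's own normalization and batch removal are not in these values. With limma 3.58.1 (R 4.3.3), normexp background correction used the detection values and an offset of 16. Rank-invariant probes between percentiles 50 and 90 then set one scale factor for each array (0.730 to 1.58). On the log2 scale, lmFit and eBayes estimated each combination of siRNA and day with replicate as block, and a separate fit used the 18 arrays of days 4 to 6. Bonferroni adjustment covered 24613 probes. Arrays sharing a day and a replicate number deviated together from their group means (r from 0.614 to 0.911 in 24 pairs, over 7121 probes above background on all arrays). Arrays of a replicate can also share an offset over all days, so these values do not show pairing by day. Pairs were matched by day and replicate number alone.

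All probes of the members are described. A gene of another list is given by its brightest probe, and the 3 called genes with the largest difference in each direction over days −2 to 6 are named, and any further gene of those lists was named after its values were seen. The members and lists were chosen with earlier results of these data known. Promoters came from RefSeq tables, where all 10 members matched. The fits were tested on simulated data. Alternatives were quantile normalization, no background correction, an offset of 50, a filter on dim probes, other blocks, an additive model, Benjamini-Hochberg adjustment and leaving out each replicate. Figures used matplotlib 3.10.9. Probe sequences and the BeadChip of each array were not used here.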

Additional observations from a re-analysis of the deposited data

Results flagged for a closer look

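For ERO1L and XBP1, changes over time were called as differing between the siRNAs, and these calls depended on the fit. An F test of whether the siRNA effect differed between days gave F = 9.38 for ERO1L probe 3060242 (limma's adjusted p = 0.0298) and F = 9.33 for XBP1 (adjusted p = 0.0317) with the replicate as a block. With a replicate block by day, with no block, with an offset of 50 and without any one replicate, 0 of the 12 member probes were called. The fitted contrast of the ERO1L step from day 0 to day 2 was −1.58 (adjusted p = 0.0135), but 3 of its 4 means had 0 of 3 arrays above background and the control mean of day 2 had 2 of 3, so it is not a measured size. XBP1 was above background on all arrays.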

How the results depend on the processing

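XBP1 kept its lower level and its call over days −2 to 6 in all 11 alternatives (−0.62 to −0.54) and over days 4 to 6 in all 10 (−0.65 to −0.58). The other counts of called members moved. Without a replicate block the count was 1 over days −2 to 6 in place of 3, 0 and 1 for the control steps to day 0 and day 2 in place of 2 each, 2 and 0 for the time courses under control siRNA and PPARγ KD in place of 5 and 3, and 0 for an effect that differs between days in place of 2. With a replicate block by day the last was also 0, and 2 remained over days −2 to 6, with ATF4 probe 1740195 no longer called. Benjamini-Hochberg adjustment gave 7 over days −2 to 6, 4 over days 4 to 6, 5, 5 and 2 for the steps to day 0, day 2 and day 6, and 8 and 5 for the time courses. Without background correction the step to day 2 and the effect differing between days had 1 each, an offset of 50 left 0 for the latter, and quantile normalization gave 1 for the step to day 6. Leaving out each replicate gave 1 to 2 over days −2 to 6, 0 to 1 for the steps to day 0 and day 2, 1 to 2 and 0 to 1 for the time courses and 0 for the effect differing between days, which has fewer arrays. Among the other genes 6 in place of 11 were called over days −2 to 6 without replicate 3, an alternative chosen after seeing the data. Signs turned for uncalled values: HSPA5 between −0.193 and 0.0367 over days −2 to 6 and between −0.176 and 0.0207 over days 4 to 6 without each replicate, PDIA3 between −0.0283 and 0.0908 over days −2 to 6, and PDIA4 to −0.0076 in the step to day 2 with quantile normalization. The causes were not tested. Signal over background limits CALR, CANX and ERO1L.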

Other observations

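Chaperones of the cytosol and mitochondria, which serve folding outside the ER, were read from a list of 18 genes, of which 14 had a probe. Over days −2 to 6, limma called 1 of them lower in the PPARγ KD, against 6.74% of all probes, and 0 higher, against 6.37%. The gene called was HSPD1, the mitochondrial chaperonin, at −0.35. The median difference of the 14 was 0.02.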
